A study of Mus musculus with 16 samples.

Results

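The genes described here are 6 markers of macrophages and other leukocytes: Ptprc, Itgb2, Fcer1g, Cd68, Lyz2 and Grn. They were taken by gene symbol, with earlier results of these data known, from a table of 5921 genes, and all 6 were found. RNA was sequenced from the microdissected ventricles of mouse embryos at E11.5, a stage counted in days from mating, 4 libraries in each of 4 groups, to ask what the transcription factor ATF4 does in heart development. The exon 2-3 line carried a floxed Atf4 allele with exons 2 and 3 between loxP sites, the exon 2 line an allele with exon 2 alone between them, and Xmlc2-Cre, a transgene that acts in cardiomyocytes, removed those exons in the conditional knockouts (cKO). The groups were exon 2-3 control and exon 2-3 cKO, labelled batch 1, and exon 2 control and exon 2 cKO, labelled batch 2. The labels give the strain as C57BL/6 and the genotype as wild type for all 16 libraries, and they do not say whether control embryos carried the floxed allele or the transgene. Replicates are described as biological, and no label gives litter or sex. The extraction text names cortical neurons, whereas all other labels name heart ventricle.

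Embryonic macrophages enter the heart from the yolk sac and the circulation, live among its muscle, vessel and epicardial cells, and clear dying cells. Leukocytes as a whole carry CD45, the phosphatase made from Ptprc, and the integrin chain CD18, made from Itgb2. Fcer1g encodes the signalling chain shared by several immunoglobulin receptors of myeloid cells, and by the collagen receptor of platelets. Cd68 encodes a glycoprotein of macrophage lysosomes and endosomes, Lyz2 the lysozyme that breaks bacterial cell walls, and Grn progranulin, a secreted and lysosomal protein that many cell types make. The Cre transgene is described as cardiomyocyte-specific, so leukocytes were not the cells meant to lose Atf4.

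The values are the authors' TPM, a measure of transcript abundance that is scaled for transcript length and for the size of each library, so levels may be compared between genes. The labels were checked against marker genes, and those of heart muscle were abundant, with mean TPM of 5096 for Myl4, 4022 for Tnnt2 and 3285 for Myl7. Libraries of a group correlated with a Pearson's r of at least 0.982 across genes.

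The 6 genes fell into very different ranges of expression. Averaged over the 16 libraries, Grn stood at 145 TPM and Lyz2 at 69.6 TPM, above 97.2% and 93.7% of the genes held. Cd68 averaged 5.17 TPM, Fcer1g 3.55 TPM and Itgb2 1.34 TPM. Ptprc, the gene that marks leukocytes of every kind, averaged 0.244 TPM and never exceeded 0.544 TPM, although it was above 0 in all 16 libraries. Within a library, Lyz2 exceeded Ptprc by a median of 225-fold in exon 2 controls, 284-fold in exon 2 cKO, 351-fold in exon 2-3 cKO and 732-fold in exon 2-3 controls. The defining leukocyte gene was thus near 0 in these ventricles, whereas Lyz2 and Grn were abundant. In bulk tissue, fewer cells of a type and less RNA per cell cannot be told apart.

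Other immune genes, from lists drawn up by cell type, were low as well. Of 30 further myeloid genes held, 20 had a mean under 1 TPM and 7 of these a mean under 0.1 TPM. None of the 30 was at 0 in every library. The 8 most abundant were Gngt2 (32.1 TPM), Tlr5 (12.4 TPM), Lyz1 (11.8 TPM), Arhgap45 (9.55 TPM), Cxcl16 (6.97 TPM), Ccl2 (4.93 TPM), Plek (4.51 TPM) and Aim2 (1.58 TPM). Several of these are also made outside the myeloid lineage: Ccl2 and Cxcl16 encode chemokines that many cell types secrete, and Plek encodes a protein that is prominent in platelets. Gngt2, Cxcl16 and Aim2 overlap another gene, and their values are uncertain on that ground. Macrophage receptors such as Fcgr3 (0.879 TPM), Cd84 (0.161 TPM), Fcgr2b (0.0662 TPM) and Timd4 (0.0285 TPM), named after their values were seen, lay under 1 TPM. All 13 lymphocyte genes and all 3 granulocyte or mast cell genes held had means under 1 TPM, led by Ptpn7 (0.419 TPM) and Mpo (0.816 TPM). Fcgr3, Cd84, Ptpn7 and Mpo also overlap other genes, so their values are uncertain on the same ground.

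**Figure D1:**
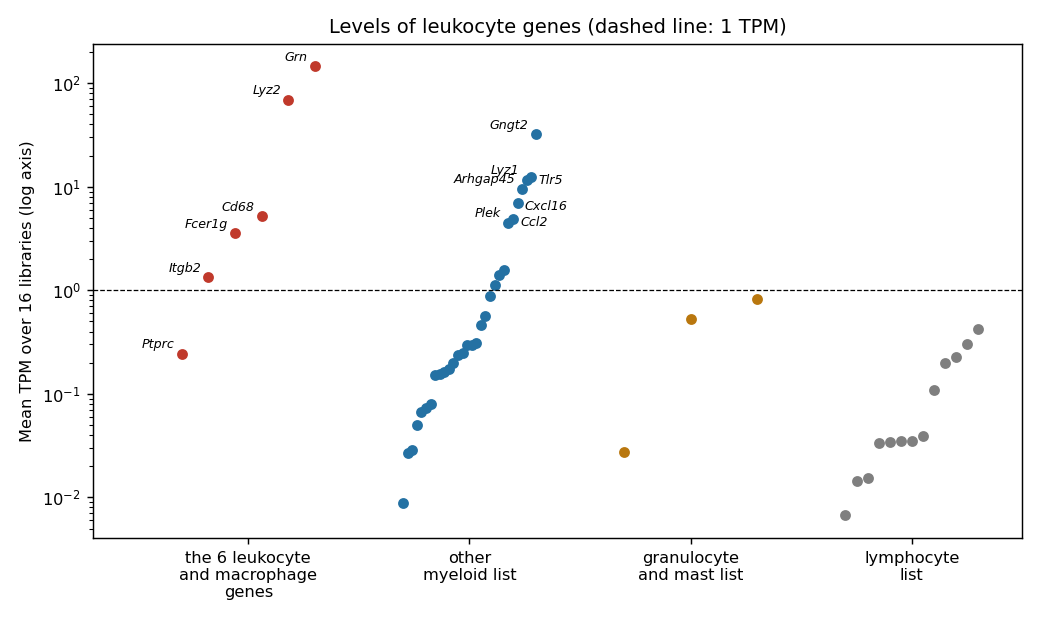
Mean TPM over the 16 libraries (log axis) of the 6 leukocyte and macrophage genes and of the other myeloid, granulocyte or mast cell and lymphocyte genes held, 1 point per gene; the dashed line is 1 TPM. Grn (145 TPM) and Lyz2 (69.6 TPM) lie far above Ptprc (0.244 TPM), and 20 of the 30 other myeloid genes lie below the line.

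None of the 6 genes overlaps another gene held. Fcer1g lies on chromosome 1 (171229572 to 171234349, minus strand, GRCm38). Cd68 (chromosome 11, 69664213 to 69666170, minus strand) begins 765 bases from the end of Eif4a1 on the same strand, a translation factor gene at 663 TPM. Cd68 stood at 0.780% of the level of Eif4a1. Grn (chromosome 11, 102430507 to 102436809, plus strand) ends 171 bases from Fam171a2, which lies on the other strand at 21.1 TPM. After removal of group means, Pearson's r over the 16 libraries was -0.14 for Cd68 with Eif4a1 and 0.59 for Grn with Fam171a2. The part of these neighbours in the values was not tested. They were chosen after their values were seen. Ptprc (chromosome 1, 138062859 to 138175756, minus strand) and Itgb2 (chromosome 10, 77530329 to 77565708, plus strand) had no gene held within 1000 bases.

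Lyz2 (chromosome 10, 117277541 to 117282272, minus strand) lies 5522 bases from Lyz1, its close copy on the same strand. The sequences of the pair are shown because they bear on how reads could be told apart. Below are coding bases 1 to 90 of each, 5′ to 3′ on the coding strand, from the GENCODE transcripts on GRCm38, with the 7 bases at which they differ in capitals.
Lyz2: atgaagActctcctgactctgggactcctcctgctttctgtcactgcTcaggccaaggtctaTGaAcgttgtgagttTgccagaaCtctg
Lyz1: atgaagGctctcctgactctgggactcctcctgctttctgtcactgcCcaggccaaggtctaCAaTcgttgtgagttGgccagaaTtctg
The coding sequences agree at 425 of 447 bases (95.1%). Over the whole transcript, 15.4% of the 50-base stretches of Lyz2 occur unchanged in Lyz1, and 1.97% of the 100-base stretches do. How reads that fit both were shared out is not given in the sources used here, so the split between Lyz2 and Lyz1 is uncertain. Lyz2 exceeded Lyz1 in all 16 libraries, by a median of 5.29-fold in exon 2-3 cKO to 6.57-fold in exon 2 cKO.

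The comparison of cKO with control was tested with limma on log2(TPM + 1) for the 2620 genes with a mean of at least 1 TPM, in each line on its own 8 libraries, and a gene was called at a Benjamini-Hochberg adjusted p under 0.05. Of the 6 genes, 5 entered the test and Ptprc did not. In the exon 2-3 line none of the 5 was called, against 6.72% of all genes tested. At an unadjusted p under 0.05 there were 2 of the 5, Lyz2 and Cd68, against 21.1% of all genes. None was called in the exon 2 line either, against 0.0763% of all genes, and Lyz2 alone had an unadjusted p under 0.05, against 3.21%. The median difference of the 5 genes was 0.11 in the exon 2-3 line and -0.034 in the exon 2 line on the log2 scale, where that of all genes tested was 0.032 and -0.012.

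**Figure D2:**
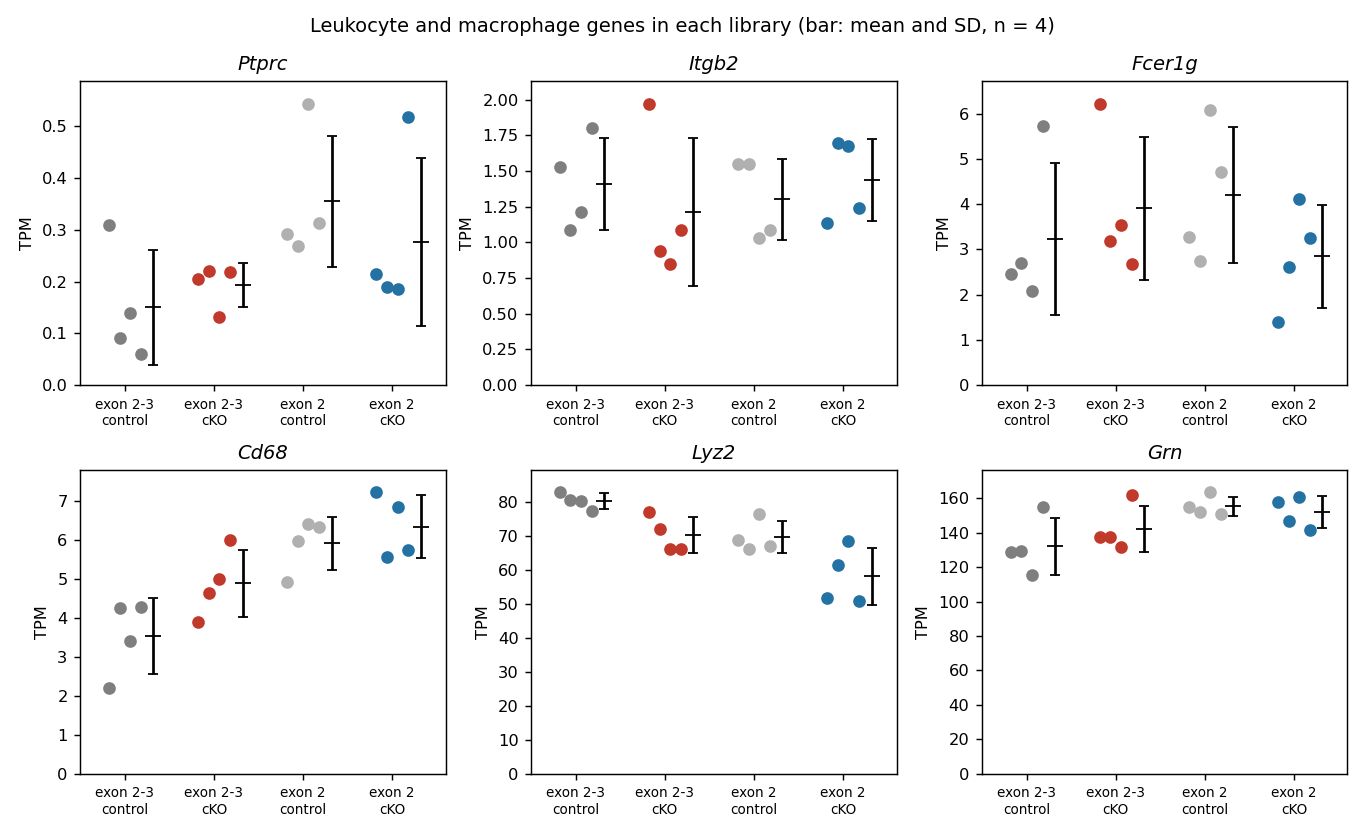
TPM of the 6 genes in each library (linear axes from 0), 4 libraries per group as points in replicate order, with the mean and SD beside them. Lyz2 in the 4 exon 2-3 cKO libraries (66.0 to 77.1 TPM) lies below the 4 controls (77.4 to 82.8 TPM), while the groups of every other gene overlap within each line.

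The leukocyte surface genes showed no called change. Ptprc stood at 0.310, 0.0911, 0.138 and 0.0604 TPM in exon 2-3 controls and at 0.205, 0.221, 0.131 and 0.219 TPM in exon 2-3 cKO. The exon 2 controls stood at 0.292, 0.269, 0.544 and 0.314 TPM and the exon 2 cKO at 0.214, 0.189, 0.185 and 0.518 TPM. The groups overlapped in both lines, and 1 exon 2 cKO library was as high as the upper controls. The difference on log2(TPM + 1) was 0.058 in the exon 2-3 line (exact permutation test, two-sided, p = 0.514, n = 4 each) and -0.089 in the exon 2 line (exact permutation test, p = 0.429, n = 4 each). The smallest p that 4 against 4 libraries allow is 0.0286.

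Itgb2, whose product pairs with several alpha chains to let leukocytes adhere, averaged 1.41 ± 0.322 TPM in exon 2-3 controls and 1.21 ± 0.518 TPM in exon 2-3 cKO (SD, n = 4 each). The cKO value rested on replicate 1, at 1.97 TPM, above every control, with the other 3 between 0.846 and 1.09 TPM. The log2 difference was -0.14 (95% confidence interval -0.52 to 0.24, limma adjusted p 0.689). It was -0.29 without cKO replicate 1, -0.062 without cKO replicate 3, -0.064 without control replicate 4, -0.085 without cKO replicate 2 and -0.25 with a pseudocount of 0.1. Itgb2 in the exon 2 line stood at 1.30 ± 0.285 TPM without and 1.44 ± 0.288 TPM with the knockout (SD, n = 4 each), a log2 difference of 0.083 (interval -0.23 to 0.40, limma adjusted p 0.999; 0.025 to 0.14 without 1 library).

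Fcer1g had the largest standard errors of the 5 genes, 0.27 in the exon 2-3 line and 0.25 in the exon 2 line on the log2 scale. It stood at 2.44, 2.69, 2.08 and 5.72 TPM in exon 2-3 controls and at 6.23, 3.19, 3.55 and 2.67 TPM in exon 2-3 cKO. Control replicate 4 and cKO replicate 1 were the high libraries, and the groups overlapped. The exon 2 controls stood at 3.28, 2.74, 6.09 and 4.71 TPM and the exon 2 cKO at 1.39, 2.62, 4.11 and 3.26 TPM, where the 2 highest libraries were controls and the 2 lowest were cKO. The log2 difference was 0.24 in the exon 2-3 line (interval -0.36 to 0.83, limma adjusted p 0.675) and -0.45 in the exon 2 line (interval -1.0 to 0.11, limma adjusted p 0.999). The signs differed between the lines, and both of these intervals, from the fit without a block, include 0. With the replicate number as a block, the SE was 0.29 in the exon 2-3 line and 0.14 in the exon 2 line. The limma adjusted p was then 0.667 and 0.984. Leaving out 1 library moved the exon 2-3 difference between 0.033 (without cKO replicate 1) and 0.48 (without control replicate 4), while the exon 2 difference became -0.60 when cKO replicate 3 was dropped and -0.23 when cKO replicate 1 was.

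Lyz2 was lower in the cKO in both lines without passing the threshold in either. It stood at 82.8, 80.7, 80.2 and 77.4 TPM in exon 2-3 controls and at 77.1, 71.9, 66.0 and 66.2 TPM in exon 2-3 cKO. All 4 cKO libraries lay below all 4 controls, which held for 5.31% of the genes tested, and cKO replicate 1 lay just below the lowest control. The mean was 12.4% lower in the cKO, a log2 difference of -0.19 (SE 0.060, interval -0.32 to -0.058, limma p 0.00950, adjusted p 0.0929). Among exon 2 embryos Lyz2 stood at 68.7, 66.1, 76.4 and 67.1 TPM in controls and at 51.7, 61.5, 68.4 and 50.8 TPM in cKO. There 3 of 4 cKO libraries lay below every control, while cKO replicate 3 lay among them, so Lyz2 was not among the 1.83% of genes tested whose groups did not overlap. The mean was 16.5% lower, a log2 difference of -0.26 (SE 0.095, interval -0.47 to -0.055, limma p 0.0182, adjusted p 0.999).

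Since both lines leaned the same way, the mean of the 2 lines' cKO effects was also tested, a comparison chosen after the values had been seen. The lines share no library. For Lyz2 the average log2 difference was -0.23 (SE 0.059, interval -0.35 to -0.10, limma p 0.00135, adjusted p 0.0554), which did not pass the threshold, and 0 of the 5 genes were called against 1.91% of all genes tested. Unadjusted p-values under 0.05 were met by 2 of the 5, Lyz2 and Cd68, against 15.1% of all genes. The adjusted p of Lyz2 lay between 0.0113 and 0.128 over the 25 alternatives run, and it was under 0.05 after quantile normalisation (0.0314), after centring on the library median (0.0156), with the replicate number as a block (0.0297) and without exon 2 cKO replicate 3 (0.0113). Lyz1, with which Lyz2 shares sequence, had log2 differences of -0.036 in the exon 2-3 line and -0.26 in the exon 2 line, with limma adjusted p-values of 0.884 and 0.999. After its group means were removed, Lyz1 followed Lyz2 over the 16 libraries (Pearson's r 0.60, Spearman's rho 0.62).

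**Figure D3:**
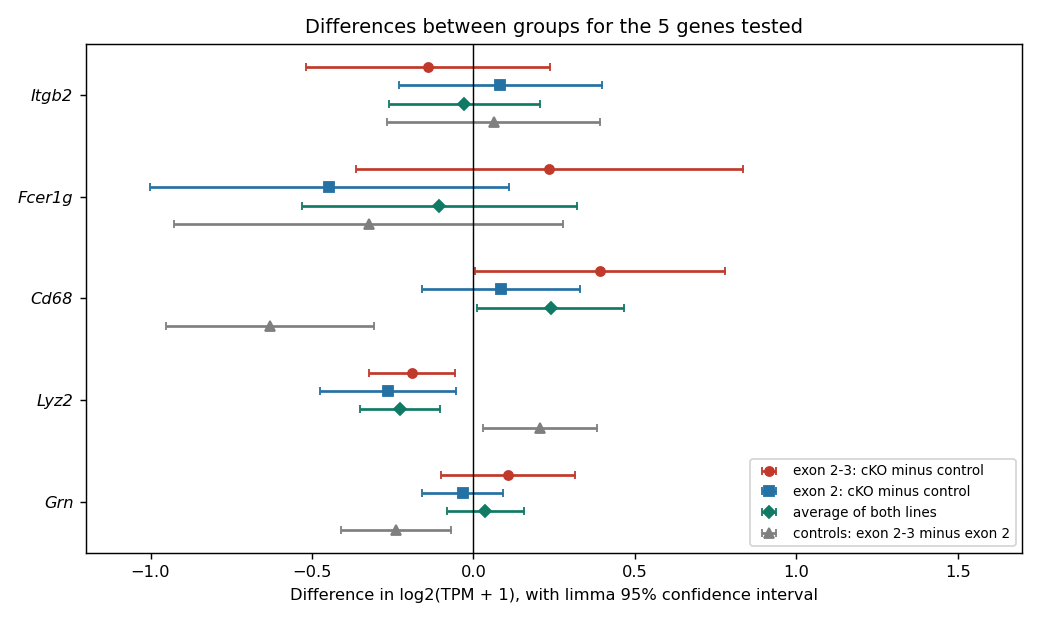
Differences in log2(TPM + 1) for the 5 genes tested, with limma 95% confidence intervals: cKO minus control in each line, the average of both lines, and exon 2-3 controls minus exon 2 controls. The intervals of Lyz2 lie below 0 in both lines (-0.32 to -0.058 and -0.47 to -0.055), and those of Itgb2, Fcer1g and Grn include 0 in both.

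Cd68 stood at 2.19, 4.27, 3.42 and 4.28 TPM in exon 2-3 controls and at 3.91, 4.65, 5.0 and 5.99 TPM in exon 2-3 cKO. Of the cKO libraries 3 were above every control, while replicate 1 lay inside their range, and control replicate 1 was the lowest of the 16 libraries. The log2 difference was 0.39 (interval 0.0051 to 0.78, limma p 0.0476, adjusted p 0.228), and it was 0.23 without control replicate 1. Its SE was 0.17, and 0.11 with the replicate number as a block (limma adjusted p 0.0836). Cd68 in the exon 2 line stood at 4.93, 5.97, 6.42 and 6.35 TPM in controls and at 7.23, 5.56, 6.84 and 5.76 TPM in cKO, with overlap, and the log2 difference was 0.086 (interval -0.16 to 0.33, limma adjusted p 0.999). Eif4a1, the abundant gene next to it, had log2 differences of -0.089 and -0.023 in the 2 lines, of the opposite sign. Over the 16 libraries, Spearman's rho between Cd68 and Eif4a1 was -0.082 once group means were removed.

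Grn was the most abundant of the 6 genes. It averaged 132 ± 16.4 TPM in exon 2-3 controls and 142 ± 13.4 TPM in exon 2-3 cKO (SD, n = 4 each), a log2 difference of 0.11 (interval -0.099 to 0.31, limma adjusted p 0.557). Leaving out 1 library moved it between 0.044 (without cKO replicate 4) and 0.19 (without control replicate 4). For exon 2 the averages were 155 ± 5.70 TPM without and 152 ± 9.26 TPM with the knockout (SD, n = 4 each), a log2 difference of -0.034 (interval -0.16 to 0.092, limma adjusted p 0.999). The other lysosomal genes tested did not pass the threshold in either line. Of these 6, 4 were higher in the exon 2-3 cKO and 1 in the exon 2 cKO. Over all 2620 genes tested, 1533 and 1131 were higher. Psap, which encodes the precursor of the saposins, had log2 differences of 0.19 and -0.16, with limma adjusted p-values of 0.172 and 0.999.

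The effects of the 2 lines were then set against each other, with the interaction term of a fit to all 16 libraries. It was called for 0 of the 5 genes, against 2.37% of all genes tested, and 0 of the 5 had an unadjusted p under 0.05 by limma, against 15% of all genes. The largest term was that of Fcer1g, 0.68 (interval -0.17 to 1.5, limma adjusted p 0.478). That of Lyz2 was 0.073 (interval -0.18 to 0.32, limma adjusted p 0.838).

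The other myeloid genes were counted in the same way. In the exon 2-3 line 0 of the 10 tested were called by limma, against 6.72% of all genes. Of the 10, 6 were higher and 4 lower in the cKO, and 4 had an unadjusted p under 0.05, against 21.1% of all genes. These were Ccl2, a chemokine that attracts monocytes (4.78 ± 0.449 to 7.5 ± 1.84 TPM, SD, n = 4 each, limma adjusted p 0.0680), Gngt2 (log2 difference 0.29, adjusted p 0.0870), Arhgap45 (0.44, adjusted p 0.117) and Cxcl16 (0.42, adjusted p 0.138). The median over the 10 was 0.19, against 0.032 over all genes tested. Of the same 10 genes 0 were called in the exon 2 line, against 0.0763% of all genes, and 4 were higher and 6 lower. None had an unadjusted p under 0.05, against 3.21% of all genes, and the median was -0.045. The summed level of the 30 myeloid genes held ran from 82.1 to 95.5 TPM in exon 2-3 controls and from 99.4 to 113 TPM in exon 2-3 cKO, and from 80.6 to 88.2 TPM and 71.4 to 88.3 TPM in the exon 2 controls and cKO. The summed level did not overlap between the exon 2-3 groups and was higher in the cKO, where Lyz2 was lower. Gngt2 gave the most to it, and its value is uncertain because it overlaps another gene. Among single genes, 381 of the 2620 tested had exon 2-3 groups that did not overlap. The sum was not tested.

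Markers of other cell types are given here because leukocytes and platelets come with blood. The megakaryocyte and platelet genes Itga2b and Itgb3, and also Plek, stood apart in 2 of the 3 libraries with the highest Fcer1g. In the other, exon 2 control replicate 3 (Fcer1g 6.09 TPM), Itga2b stood at 4.63 TPM and Gp1ba at 3.19 TPM. Itga2b, the platelet integrin chain that embryonic blood progenitors also carry, stood at 22.7 TPM in exon 2-3 control replicate 4 and at 18 TPM in exon 2-3 cKO replicate 1, against 3.52 to 10.6 TPM in the other 14 libraries. The same libraries were highest for Itgb3 (18.4 and 15.5 TPM), Plek (10.04 and 10.4 TPM) and Gp1ba (6.56 and 6.55 TPM). Gp1ba did not stand apart, since it reached 6.21 TPM in exon 2 cKO replicate 3. After group means were removed, Fcer1g followed Itga2b over the 16 libraries (Pearson's r 0.77, Spearman's rho 0.75) and over the 14 left without these 2 libraries (r 0.60, rho 0.60). Its r was 0.69 with Itgb3, 0.57 with Gp1ba and 0.71 with Plek, which is in the myeloid list. Without these libraries r was 0.13, 0.21 and 0.26, so those relations rested on the 2 libraries. Itgb2 had an r of 0.79 with Gp1ba, 0.72 with Itgb3, 0.68 with Plek and 0.61 with Itga2b. Without the same libraries these were 0.73, 0.46, 0.31 and 0.26. Grn had an r of 0.58 with Itgb3, 0.50 with Plek, 0.49 with Itga2b and 0.39 with Gp1ba. Without the same libraries these were 0.48, 0.14, -0.15 and 0.13. The r with Itga2b was -0.13 for Ptprc, 0.12 for Lyz2 and 0.024 for Cd68, and 0.35, 0.36 and -0.58 without the same libraries. With the globin gene Hba-x, Ptprc had an r of 0.34 and a rho of 0.57 over the 16 libraries. That r was 0.22 within the exon 2-3 line and 0.87 within the exon 2 line. Among the other genes described here, r with Hba-x over the 16 libraries ran from -0.39 for Itgb2 to 0.39 for Grn. These are descriptions of pairs chosen after their values were seen, and all values of a library share its scaling. Without both libraries, a comparison chosen after seeing the data, 0 of the 5 genes were called in the exon 2-3 line, and the log2 difference was 0.28 for Fcer1g, -0.21 for Itgb2, 0.56 for Cd68, -0.25 for Lyz2 and 0.20 for Grn. The adjusted p of Lyz2 was then 0.0663.

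**Figure D4:**
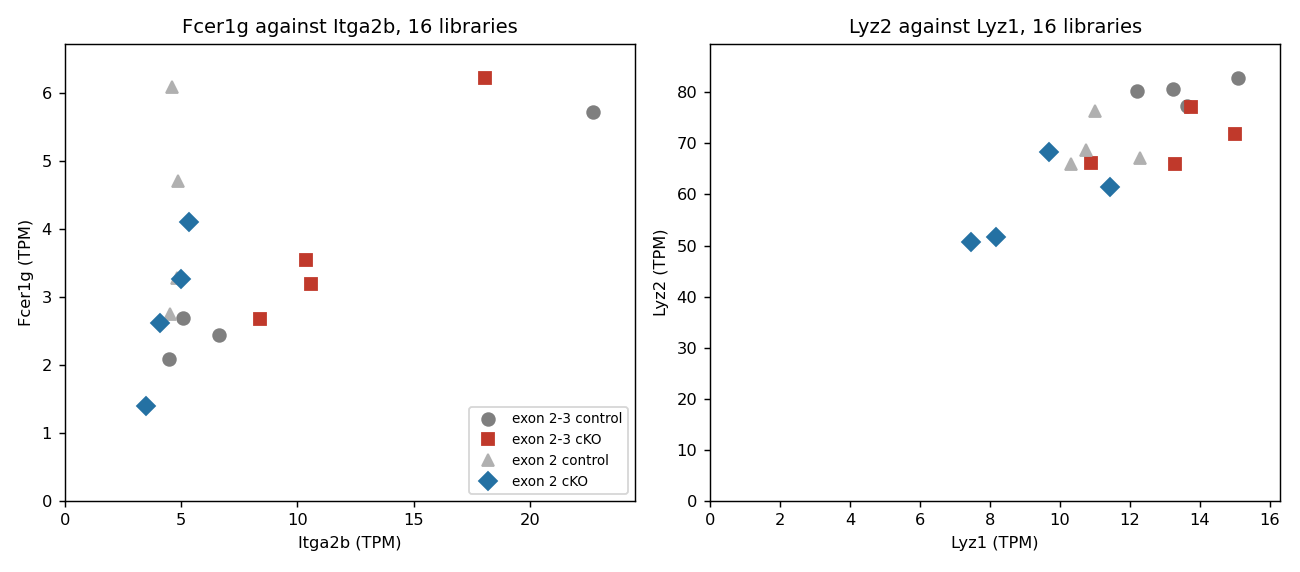
TPM of Fcer1g against Itga2b (left) and of Lyz2 against Lyz1 (right), 1 point per library, 4 per group, linear axes from 0. Exon 2-3 control replicate 4 and cKO replicate 1 lie apart at the upper right of the left panel (Itga2b 22.7 and 18 TPM), and Lyz2 exceeds Lyz1 in all libraries of the right panel.

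The remaining lists were measured in the same libraries. Summed platelet genes ran from 14.3 to 47.8 TPM in exon 2-3 controls and from 22.2 to 40.2 TPM in exon 2-3 cKO, and from 16.1 to 18.7 TPM and 14.4 to 21.4 TPM in the exon 2 groups. Summed erythroid genes, mostly the globins Hba-x, Hba-a1 and Hba-a2, ran from 1514 to 11300.4 TPM in exon 2-3 cKO, from 2997 to 4559 TPM in its controls, and from 2023 to 4712 TPM over both exon 2 groups. Endothelial genes (Ramp2, Icam2 and Sox17) ran from 193 to 264 TPM in the exon 2-3 line and from 198 to 226 TPM in the exon 2 line. No gene of the erythroid, platelet, endothelial or lysosomal lists was called by limma in either line. The shares over all genes were 6.72% in the exon 2-3 line and 0.0763% in the exon 2 line. At an unadjusted p under 0.05 there were 1 of 3 endothelial genes (Ramp2) and 1 of 6 lysosomal genes (Psap). Both were in the exon 2-3 line, against 21.1% of all genes. Of 7 heart muscle genes tested, 1 was called, in the exon 2-3 line. It was Hand1, a cardiac transcription factor that was lower in the cKO (log2 difference -0.60, limma adjusted p 0.00573). The part of these cell types in the values of the 6 genes was not tested.

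No pair of the 6 genes passed a test of varying together from embryo to embryo. Each pair was compared over the 16 libraries after group means were removed, with a permutation test within groups. Of the 15 pairs, 9 had a positive Pearson's r, the median was 0.072, and none passed a Benjamini-Hochberg adjusted p of 0.05 or an unadjusted p of 0.05 (smallest adjusted p 0.432 by permutation). The highest r was that of Cd68 with Grn, 0.51 (permutation p = 0.161, adjusted 0.432), with a Spearman's rho of 0.60 (permutation p = 0.0387, adjusted 0.581), an r of 0.48 and 0.63 within the 2 lines, and 0.62 without the 2 libraries farthest from the median. Fcer1g with Itgb2 had an r of 0.41 (permutation p = 0.148, adjusted 0.432) and a rho of 0.20 (permutation p = 0.486, adjusted 0.758). It was 0.77 within the exon 2-3 line and -0.13 within the exon 2 line. The relation rested on exon 2-3 control replicate 4 and cKO replicate 1, since without these libraries r was -0.021. Fcer1g with Lyz2 had an r of 0.48 (permutation p = 0.0943, adjusted 0.432), a rho of 0.41 (permutation p = 0.168, adjusted 0.758), 0.28 and 0.63 within the lines, and 0.56 without the same libraries. For these pairs the 2 libraries left out were those farthest from the median of the first gene named. The group means removed were still those of all 16 libraries. For the platelet genes and Plek above, means were taken again over the 14 libraries left, so the measures differ.

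Of the other 2615 genes tested, those most like the mean of the 5 genes' standardised values over the 16 libraries were Mir6925 (Pearson's r 0.86), Ipmk (0.86), Ramp2 (0.85), Syde1 (0.85) and Lmnb2 (0.85), where 1 gene in 100 exceeded 0.78. None is in the immune lists, to which only 10 of the genes ranked belong, so their absence says little. Ramp2, which encodes a partner of the adrenomedullin receptor, is in the endothelial list. For single genes the closest were Dhrs7b for Itgb2 (0.89), Ccdc117 for Fcer1g (0.84), Acsf2 for Cd68 (0.85), Smpdl3a for Lyz2 (0.81) and Samd14 for Grn (0.94). Grn was like many genes, since 1 in 100 exceeded an r of 0.86 with it, against 0.67 for Lyz2.

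The control groups were compared last, for the level of the 6 genes without a knockout. Of the 5 tested, 3 differed at a limma adjusted p under 0.05, against 52.6% of all genes, and the groups of 2, Cd68 and Lyz2, did not overlap, against 45.5% of all genes, so the shares are near the background. Cd68 was lower in the exon 2-3 controls, 3.54 ± 0.985 against 5.92 ± 0.687 TPM (SD, n = 4 each, log2 difference -0.63, limma adjusted p 0.00267), while its neighbour Eif4a1 differed by 0.054 (limma adjusted p 0.515). Lyz2 was higher there, 80.3 ± 2.24 against 69.6 ± 4.70 TPM (SD, n = 4 each, 0.21, limma adjusted p 0.0484). Grn was lower, 132 ± 16.4 against 155 ± 5.70 TPM (SD, n = 4 each, -0.24, limma adjusted p 0.0189). The median over all genes in this comparison was -0.14, and 0.041 once each library was centred on its median. After that centring the difference of Lyz2 was 0.39 (limma adjusted p 0.000897) and that of Grn was -0.059 and not called (adjusted p 0.420), while that of Cd68 was called in each of the 17 alternatives run. The call for Lyz2 was lost in 7 of the 8 fits without 1 control library, all but that without exon 2 control replicate 3, with adjusted p-values up to 0.110, and in 4 of the 9 other alternatives. The call for Grn was lost without exon 2-3 control replicate 3 (0.0715) and without exon 2 control replicate 3 (0.0572). The line and the batch cannot be told apart here.

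Across the 4 groups, the order of mean levels differed from gene to gene. These orders set the lines side by side, where line and batch cannot be told apart. Lyz2 ran from exon 2-3 controls (80.3 TPM) to exon 2 cKO (58.1 TPM). Between them lay exon 2-3 cKO (70.3 TPM) and exon 2 controls (69.6 TPM), which overlapped and were not tested against each other. Cd68 ran the other way, from 3.54 TPM in exon 2-3 controls through 4.89 TPM in exon 2-3 cKO and 5.92 TPM in exon 2 controls to 6.35 TPM in exon 2 cKO, where neighbouring groups overlapped. Ptprc was lowest in exon 2-3 controls (0.150 ± 0.111 TPM) and highest in exon 2 controls (0.355 ± 0.127 TPM; SD, n = 4 each), values too low for the limma test.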

How the data were processed

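The authors deposited 1 table of TPM values with 1 column per library. The submitters' processing notes name the build GRCm38 and the tools FastQC, Trim Galore 0.6.7, HISAT2 2.2.1, StringTie 2.2.1, featureCounts and DESeq2, but not which of them made the TPM. TPM keep no depth, so no counting interval is given. The labels differ on library preparation (stranded mRNA or ribosomal RNA depletion), and strand use is not given in the sources used here. The genes held lie on chromosomes 1, 10 and part of 11 and take 15.2% to 17.1% of each library's TPM. Genes elsewhere, Atf4 included, are not analysed here, so directions rest on the labels.

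The coordinates of the 6 genes equalled RefSeq's on GRCm38. Genes with a mean of at least 1 TPM were tested on log2(TPM + 1), which understates changes of low genes, with limma 3.58.1 (lmFit, eBayes with trend) in R 4.3.3, two-sided, Benjamini-Hochberg adjusted over 2620 genes. The interaction, the controls and the average of the lines came from a group means model over 16 libraries. Pairs used 100000 permutations (scipy 1.17.1). The fit was also run on simulated data with independent noise for each gene and library. Such data lack the scaling that genes of a real library share, and no result here rests on them. The 6 genes, the 8 cell type lists (myeloid, granulocyte or mast, lymphocyte, platelet, erythroid, endothelial, heart muscle and lysosomal) and the tests were chosen with earlier results of these data known. Named genes were the 6, the 8 most abundant myeloid genes, leading or called genes of other lists, and the genes most like the 6. Alternatives were a pseudocount of 0.1, no filter, a minimum mean of 5 TPM, quantile normalisation, median centring, rescaling without hemoglobin genes, no trend, a replicate block, 1 fit over all libraries and leaving out libraries.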

Additional observations from a re-analysis of the deposited data

Results flagged for a closer look

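In 24 groups of 4 values (6 genes in 4 groups), 3 libraries stood farther from the other 3 than Dixon's 95% limit allows, by the gap as a share of the group's range. Chance flags about 1 group in 20. Fcer1g in exon 2-3 control replicate 4 stood at 5.72 TPM, with the others between 2.08 and 2.69 TPM (gap 0.834 of the range). Ptprc in exon 2 control replicate 3 stood at 0.544 TPM, with the others between 0.269 and 0.314 TPM (gap 0.838). Ptprc in exon 2 cKO replicate 4 stood at 0.518 TPM, with the others between 0.185 and 0.214 TPM (gap 0.913). At these levels of Ptprc the number of reads is unknown. Both libraries flagged for Ptprc had the highest Hba-x of their group, 1487 TPM in the control and 1248 TPM in the cKO. The part of blood in these values was not tested.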

How the results depend on the processing

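The count of the 6 genes called was 0 within each line and in the interaction under each of the 18, 17 and 25 alternatives run, those without 1 library included (0 to 0 in each). Between the controls 3 genes were called, 1 with the replicate block, and 1 to 2 without 1 library. For the average of the lines the count was 1 (Lyz2) after quantile normalisation, after median centring and with the replicate block, and 0 to 1 without 1 library. Directions turned only for genes that were not called: Itgb2 between the controls (-0.013 to 0.13 without 1 library, -0.013 without both exon 2-3 control replicate 4 and cKO replicate 1), and, averaged over the lines, Itgb2 (-0.10 to 0.011) and Fcer1g (-0.21 to 0.018) without 1 library. The number of pairs of genes that passed was 0 in both alternatives. The cause of these shifts was not tested. By the rule that every same-numbered correlation exceed 0.1, replicate numbers were not taken to pair the libraries. Deviations of same-numbered libraries correlated at -0.029, 0.053, -0.0063 and 0.21 in the exon 2-3 line and at 0.098, 0.17, 0.20 and 0.064 in the exon 2 line, and 2 of 8 libraries of the exon 2-3 line and 7 of 8 of the exon 2 line correlated best with their own number, a hint of pairing in the exon 2 line from the data, not the design. Without the low-value filter Ptprc entered the fit, with log2 differences of 0.058 and -0.089 (limma adjusted p 0.758 and 1.00). A pseudocount of 0.1 gave 0.32 and -0.32 for Ptprc (exact permutation p 0.40 and 0.371), and leaving out 1 library gave 0.021 to 0.12 and -0.18 to -0.025. The minimum of 5 TPM left out Fcer1g and Itgb2. Depth is unknown.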
